A study of Mus musculus with 10 samples.

Results

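The 9 genes described here write, copy, read or remove methylation of cytosine in mouse DNA: Dnmt1, Uhrf1, Dnmt3a, Dnmt3b, Dnmt3l, Tet1, Tet2, Tet3 and Zfp57. They were listed by name, with earlier results of these data known, and they are 9 of the 21938 protein-coding genes annotated on the autosomes and on X and Y. The cells were F123, an embryonic stem cell line from an F1 cross of Mus musculus castaneus with S129/SvJae, for which the labels name no treatment and no edited allele. They were grown in serum replacement medium with LIF on irradiated CF1 fibroblasts and moved to gelatin without feeders for 1 passage before harvest. Open chromatin was mapped by ATAC-seq, in which a transposase cuts accessible DNA, from 100000 fresh cells in each of 2 biological replicates. H3K4me3, a histone mark found at active and poised promoters, was mapped by ChIP-seq from 2000000 fixed cells in each of 2 biological replicates. Each assay came as 1 list of peaks that stands for both replicates, with 179109 ATAC-seq peaks and 33487 H3K4me3 peaks. No value below therefore has a replicate error, the depth is unknown, and the comparisons are descriptions without a test. The lists hold 1 condition and do not separate the parental alleles, and a peak shows a marked or accessible promoter, not an amount of transcript.

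Markers of the labelled cell type were marked, as were most protein-coding genes. All 8 embryonic stem cell markers examined had an H3K4me3 peak at a start, with fold enrichments from 9.74 at Dppa5a to 42.9 at Sox2. Over all protein-coding genes 68.7% had such a peak, so the count alone says little about cell type. Of 7 fibroblast markers, 3 had one, at 13.9-fold for Col1a1, 20.4-fold for Col1a2 and 3.39-fold for Dcn, while Col3a1, Postn, Lum and Fap had none. The part of feeder fibroblasts in the peaks described below was not tested.

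In mammals, methyl groups are placed on CpG dinucleotides by the de novo enzymes Dnmt3a and Dnmt3b, whose activity the catalytically inactive Dnmt3l stimulates. Dnmt1 copies the pattern to the new strand after replication, and Uhrf1 brings it to hemimethylated sites. The Tet enzymes oxidise 5-methylcytosine and so open a path to its removal, and the zinc finger protein Zfp57 binds a methylated hexamer at imprinted regions and protects methylation there in the early embryo. Several of these genes have alternative promoters that give different proteins. Dnmt3a2, the short product of an internal Dnmt3a promoter, is known as the main Dnmt3a form of embryonic stem cells, oocytes start Dnmt1 at an exon of their own, and Dnmt3l is transcribed from different starts in stem cells, oocytes and adult testis.

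Within 1000 bp of at least 1 annotated start, 9 of 9 members had H3K4me3 and 9 of 9 had open chromatin by ATAC-seq. Over all protein-coding genes the shares were 68.7% for H3K4me3 and 75.1% for ATAC-seq. The 90 annotated transcripts of the 9 genes fell into 41 start clusters when starts up to 1000 bp apart were joined. An H3K4me3 peak lay at 17 of the 41 clusters (41.5%), near the 39.6% of clusters of all protein-coding genes. An ATAC-seq peak lay at 24 (58.5%), against 49.0% over all genes, and both lay at 15 (36.6%), against 37.4%. The remaining clusters were 9 with ATAC-seq alone, 2 with H3K4me3 alone and 15 with neither. The 17 marked clusters were all among the 25 that hold a transcript with a complete 5' end, a class marked at 50.1% over all genes. None of the 16 clusters made up of incomplete or retained-intron transcripts was marked, and over all genes 10.4% of such clusters were.

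An H3K4me3 peak lay within 1000 bp of 2 or more start clusters in 5 of the 9 genes, namely Dnmt3a, Dnmt3l, Tet1, Tet3 and Zfp57. Among all protein-coding genes with 2 or more start clusters, 26.4% had H3K4me3 at 2 or more of them. The same 5 genes had 2 or more separate H3K4me3 peaks at their starts, which held for 13.4% of all protein-coding genes. The members had a median of 3 start clusters and all protein-coding genes a median of 2, and the part of this difference in the counts was not tested. With a start required inside the peak, 3 of the 9 genes, Dnmt3a, Tet1 and Tet3, had 2 or more marked clusters, against 17.0% of the genes with 2 or more clusters. Both Zfp57 clusters were counted through 1 peak, and the peak near the upstream Dnmt3l starts held starts of the neighbouring gene Aire alone. At 14 of the 17 marked clusters a start lay inside the peak. At the other three (internal Dnmt3a starts, the upstream Dnmt3l starts and the upstream Zfp57 start) the peak was close by but held no start of the cluster.

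The strongest start peak of each gene ran from 8.02-fold at Dnmt3l to 47.5-fold at Dnmt3b, with a median of 32.6-fold. Fold enrichment here is the peak's ChIP signal over background as the peak caller gave it. The strongest start peaks of the 15072 protein-coding genes that had one were at a median of 30.8-fold with quartiles of 20.6 and 40.3. Of the members, 7 were above that median and Tet3 (26.1-fold) and Dnmt3l were below it. Only Dnmt3b was above the upper quartile. All 9 strongest peaks were wider than the median of 2162 bp over genes, from 2170 bp at Dnmt3l to 5020 bp at Tet1.

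**Figure D1:**
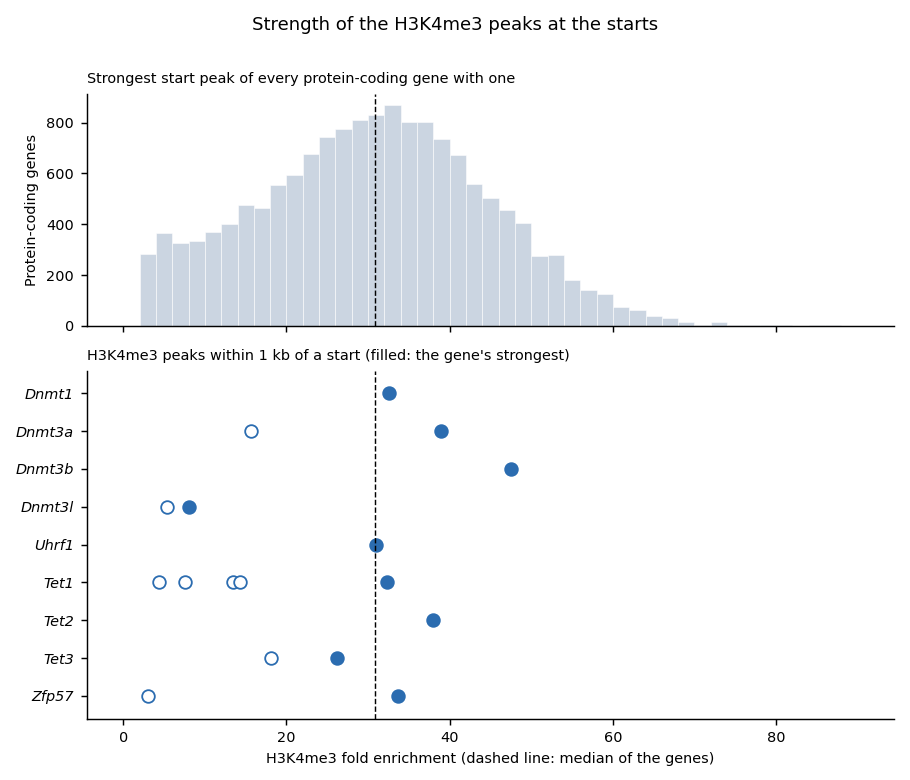
The upper panel counts protein-coding genes by the H3K4me3 fold enrichment of their strongest start peak, and the lower panel gives every H3K4me3 peak within 1 kb of a start of the 9 genes, filled for the gene's strongest and open for the others. The dashed line is the median over genes, 30.8-fold; Dnmt3l lies at the low end and Dnmt3b at 47.5-fold.

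Of the maintenance genes, Dnmt1 was marked at 1 of 4 start clusters. The H3K4me3 peak at chr9:20950784-20953511 was 32.6-fold with a −log10 q of 680.4, and the q-value is the peak caller's estimate of the false discovery rate. It held the starts of 4 of 7 transcripts, among them Dnmt1-201, which encodes the full-length protein of 1620 codons, and an ATAC-seq peak of 1091 bp. Dnmt1-203 and Dnmt1-207, with 1501 and 1502 codons, also started inside the H3K4me3 peak. The start of Dnmt1-202, which lies upstream and encodes 1501 codons, had neither peak, and the nearest H3K4me3 peak was 6377 bp away. Both remaining clusters belonged to retained-intron transcripts and had ATAC-seq alone. The sequences below run from 180 bases before to 20 bases from the start of these transcripts, 5′ to 3′ in the GRCm38.p6 assembly, with every CpG in capitals. They show the marked and the unmarked Dnmt1 start at chr9:20952960-20953159 and chr9:20959869-20960068, both on the minus strand, with 7 and 1 CpG.
Dnmt1-201: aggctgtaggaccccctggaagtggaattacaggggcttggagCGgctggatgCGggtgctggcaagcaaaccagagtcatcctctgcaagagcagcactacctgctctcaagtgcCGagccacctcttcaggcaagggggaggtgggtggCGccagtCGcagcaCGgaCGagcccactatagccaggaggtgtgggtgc
Dnmt1-202: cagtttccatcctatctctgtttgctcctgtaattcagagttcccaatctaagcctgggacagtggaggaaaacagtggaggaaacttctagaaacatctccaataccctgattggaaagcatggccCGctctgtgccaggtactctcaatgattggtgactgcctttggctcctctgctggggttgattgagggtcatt

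Uhrf1 was marked at its 5′ cluster only. Its peak at chr17:56302821-56306206 was 30.9-fold with a −log10 q of 615.2 and held the starts of 5 of 7 transcripts, which encode up to 782 codons. It was 3386 bp wide, wider than the strongest peak of 85.4% of the genes. Within it lay 2 ATAC-seq peaks of 559 and 640 bp, 1 at each group of starts in the cluster. The internal starts at 56312663 and 56318026 belonged to transcripts without a coding sequence and had neither peak.

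Among the de novo genes, Dnmt3a was marked at both of its main promoters. The first peak, chr12:3805945-3808880, was 39.0-fold with a −log10 q of 564.4 and covered 6 transcript starts, of which Dnmt3a-201 and Dnmt3a-218 encode the 908-codon long form. The second peak, chr12:3890843-3894030, was 15.6-fold with a −log10 q of 181.9 and covered the starts of Dnmt3a-205 and Dnmt3a-203, which encode the 689-codon short form. The summits were 84.5 kb apart, and the fold enrichment at the long-form promoter was 2.50 times that at the short-form promoter. Their order in width was the other way, at 2936 bp for the long form and 3188 bp for the short form. The long-form peak was above the strongest peak of 72.1% of genes in fold enrichment and the short-form peak above 16.3%. Each held an ATAC-seq peak over the start, of 2127 bp at the long form and 844 bp at the short form, and the former was wider than 99.95% of all ATAC-seq peaks.

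Between and beyond these promoters, the other 8 Dnmt3a clusters held no start inside an H3K4me3 peak. The cluster of Dnmt3a-209 and Dnmt3a-217 was counted as marked because its nearest start lay 794 bp past the short-form peak. The starts of Dnmt3a-213 and Dnmt3a-214 lay in ATAC-seq peaks of 580 and 457 bp without H3K4me3. The printed windows, chr12:3806850-3807049 and chr12:3891548-3891747 on the plus strand, show that the long-form start lies in denser CpG, with 33 CpG in 200 bases against 14.
Dnmt3a-201: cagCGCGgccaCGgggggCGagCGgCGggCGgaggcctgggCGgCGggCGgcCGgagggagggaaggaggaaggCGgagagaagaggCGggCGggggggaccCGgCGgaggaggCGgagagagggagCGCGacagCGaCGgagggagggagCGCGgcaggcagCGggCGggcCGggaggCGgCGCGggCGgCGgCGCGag
Dnmt3a-205: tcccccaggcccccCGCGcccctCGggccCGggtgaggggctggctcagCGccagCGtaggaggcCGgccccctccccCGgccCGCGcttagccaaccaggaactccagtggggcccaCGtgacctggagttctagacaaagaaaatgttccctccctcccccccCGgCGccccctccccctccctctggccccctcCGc

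Dnmt3b had the strongest start peak of the 9 genes. It lay at chr2:153648793-153652111, 47.5-fold with a −log10 q of 809.5, above the strongest peak of 88.2% of genes, and held the starts of 10 of 12 transcripts. These encode up to 860 codons. The peak also held the start of Dnmt3bos, an antisense transcript, and position alone does not assign the peak to either. Of the 2 internal starts, both of transcripts without a coding sequence, 1 had an ATAC-seq peak within 1000 bp and neither had H3K4me3. Dnmt3c, a paralog known from the male germ line, starts 47198 bp from the Dnmt3b-201 start and had neither peak.

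Dnmt3l had the lowest fold enrichment of the 9 genes at its strongest start peak. The starts of Dnmt3l-201 and Dnmt3l-208, which encode the full 421 codons, lay inside a peak at chr10:78048983-78051152 that was 8.02-fold with a −log10 q of 37.0. Only 6.52% of genes had a lower fold enrichment at their strongest peak, although the width of 2170 bp was at the middle of the genes (50.5% were narrower). An ATAC-seq peak of 647 bp covered these starts. The upstream start of Dnmt3l-205, which encodes 421 codons as well, lay inside no peak. The nearest H3K4me3 peak, chr10:78043112-78043980 at 5.36-fold with a −log10 q of 24.1, began 825 bp downstream of it, and the ATAC-seq peak there began 577 bp downstream. That H3K4me3 peak held the annotated starts of Aire, the autoimmune regulator gene, which runs the other way across the upstream Dnmt3l starts (chr10:78030022-78043610). Which gene the peak belongs to cannot be told apart from position alone.

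The third Dnmt3l cluster, near the 3′ part of the gene, gives a product of 126 codons. It had an ATAC-seq peak of 800 bp over its starts and its nearest H3K4me3 peak was 3683 bp away. The windows at the Dnmt3l starts (chr10:78042107-78042306, chr10:78049662-78049861 and chr10:78055155-78055354, plus strand) held 4, 4 and 3 CpG, so marked and unmarked starts of this gene differ little in CpG number over these windows.
Dnmt3l-205: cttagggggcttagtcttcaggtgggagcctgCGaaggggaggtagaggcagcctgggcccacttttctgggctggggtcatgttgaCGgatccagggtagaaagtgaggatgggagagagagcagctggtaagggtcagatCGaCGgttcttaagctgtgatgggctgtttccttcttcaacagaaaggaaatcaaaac
Dnmt3l-201: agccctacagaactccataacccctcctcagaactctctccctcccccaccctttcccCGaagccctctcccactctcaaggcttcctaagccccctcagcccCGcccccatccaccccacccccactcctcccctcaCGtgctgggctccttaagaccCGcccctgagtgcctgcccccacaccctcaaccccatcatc
Dnmt3l-202: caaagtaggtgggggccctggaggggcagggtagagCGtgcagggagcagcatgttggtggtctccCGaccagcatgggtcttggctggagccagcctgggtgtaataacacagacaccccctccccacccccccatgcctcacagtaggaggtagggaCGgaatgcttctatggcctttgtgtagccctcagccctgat

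**Figure D2:**
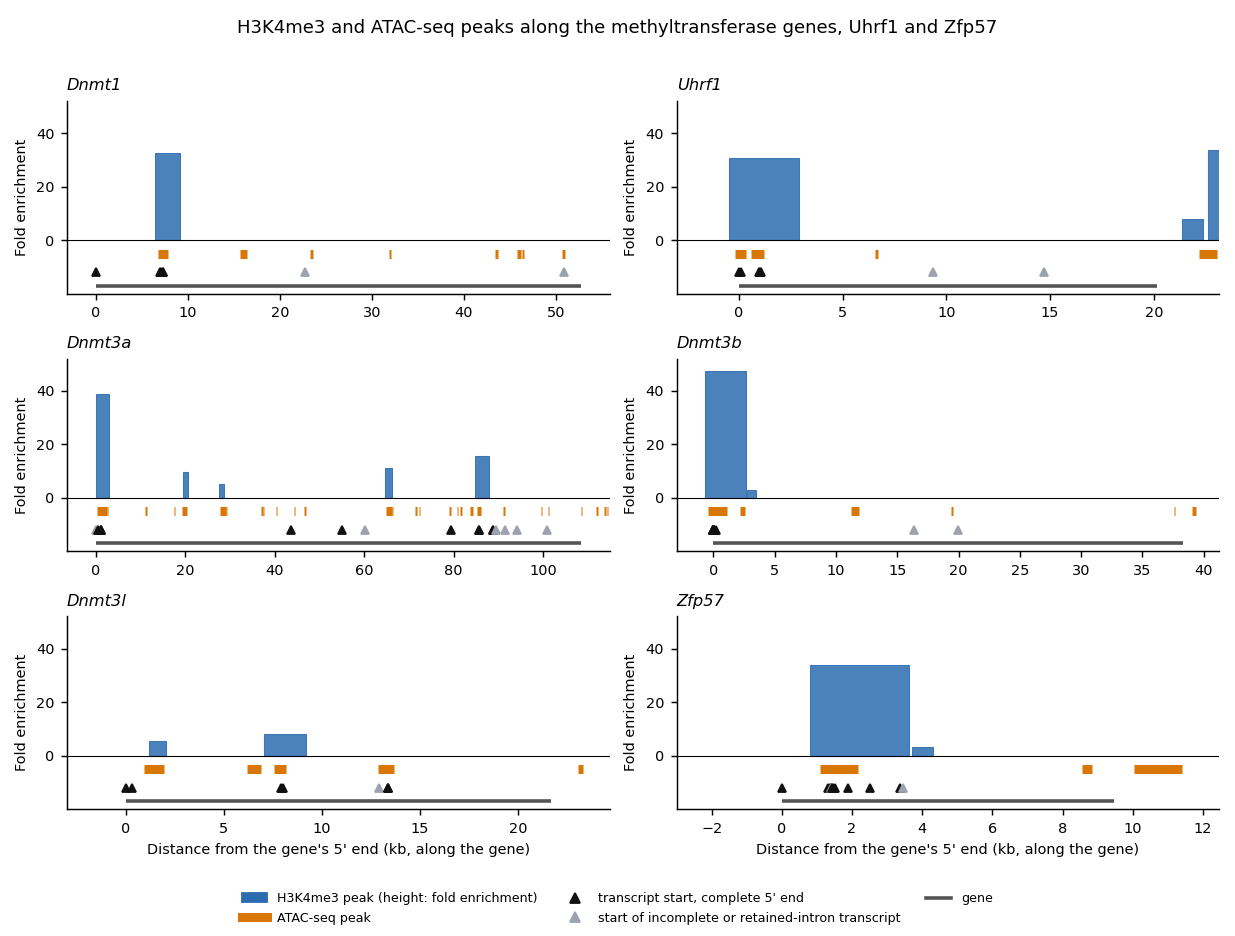
Each panel runs along 1 gene from its 5′ end in kb; blue bars are H3K4me3 peaks drawn to width with the fold enrichment as height, orange bars are ATAC-seq peaks, and triangles are annotated starts, black for transcripts with a complete 5′ end and grey for incomplete or retained-intron ones. Dnmt3a shows peaks of 39.0-fold and 15.6-fold at its long-form and short-form starts, and both Dnmt3l peaks are below 10-fold.

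Tet1 had the most complex pattern, with 4 of 7 start clusters marked by 5 peaks. The strongest and widest peak, chr10:62883395-62888414, was 32.3-fold with a −log10 q of 516.4 and covered 5020 bp, wider than 97.1% of the strongest peaks of genes. It reached from 902 bp before to 4117 bp after the start of Tet1-210 and held the starts of Tet1-207 and Tet1-210, annotated with 47 codons each. Open chromatin within it was called as 5 separate peaks, 1596 bp wide at the start itself. Tet1-208 and Tet1-209, which start further upstream, are annotated with 47 codons too. Whether these 47-codon models are complete at the 3′ end was not examined. Their codon counts therefore do not show which protein starts at the 32.3-fold peak. The transcripts annotated with full-length proteins started elsewhere. The start of Tet1-206, which encodes 2039 codons, lay 18 bp inside the edge of a weak peak, chr10:62897982-62899136, at 4.40-fold with a −log10 q of 14.9. The start of Tet1-201, which encodes 2007 codons, lay inside no peak, with H3K4me3 3381 bp and ATAC-seq 1303 bp away at the nearest.

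Further Tet1 peaks marked internal starts. Tet1-209 started in a peak of 14.2-fold (chr10:62892216-62893844), in which the small nuclear RNA gene Gm26479 starts as well. A second peak of 7.61-fold (chr10:62890365-62892113) began 873 bp downstream of the Tet1-209 start. Tet1-202, a transcript without a coding sequence, started in a peak of 13.5-fold at chr10:62864976-62866602. The start furthest upstream, of Tet1-208, had an ATAC-seq peak of 140 bp alone. The sequences show the start in the strongest peak (chr10:62887493-62887692) and the 2 full-length starts (chr10:62899099-62899298 and chr10:62879995-62880194), all on the minus strand. In the reference, 85.2% of the 1000 bases around the Tet1-206 start are soft-masked as repeats, against 0% around Tet1-210 and 20.1% around Tet1-201.
Tet1-210: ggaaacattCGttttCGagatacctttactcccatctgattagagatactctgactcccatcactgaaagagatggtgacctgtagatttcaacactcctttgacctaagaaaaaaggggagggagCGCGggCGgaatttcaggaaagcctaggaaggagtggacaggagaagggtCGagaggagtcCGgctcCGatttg
Tet1-206: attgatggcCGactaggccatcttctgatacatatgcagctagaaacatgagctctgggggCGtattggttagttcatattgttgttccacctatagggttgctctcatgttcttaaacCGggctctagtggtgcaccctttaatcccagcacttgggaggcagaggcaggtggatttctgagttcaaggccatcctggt
Tet1-201: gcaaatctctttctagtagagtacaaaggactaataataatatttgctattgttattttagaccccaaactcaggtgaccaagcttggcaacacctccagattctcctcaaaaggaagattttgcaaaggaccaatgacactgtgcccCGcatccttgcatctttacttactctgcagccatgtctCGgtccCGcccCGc

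Tet2 had a single marked promoter. The peak at chr3:133542536-133545516 was 37.9-fold with a −log10 q of 571.3 and held the starts of 5 of 10 transcripts, including Tet2-204 with 1920 codons and Tet2-201 with 1912. The antisense transcript Gm42567 starts in the same peak. An ATAC-seq peak of 1101 bp covered the starts, and another of 185 bp had its midpoint 1119 bp downstream of the Tet2-204 start. The 5 internal clusters, each of 1 incomplete or retained-intron transcript, had neither peak, and the nearest H3K4me3 peak was at least 25390 bp away from each.

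Tet3 was marked at 2 of 3 clusters, and the transcripts that start there differ in coding length. The peak at the Tet3-203 start, chr6:83455243-83458032, was 26.1-fold with a −log10 q of 413.8, and this transcript encodes 1803 codons. The peak at the Tet3-202 start, chr6:83439882-83442409, was 18.1-fold with a −log10 q of 225.9, and this transcript encodes 1668 codons. Their summits were 14.6 kb apart, and the upstream peak had 1.45 times the fold enrichment of the downstream one. Both had a wide ATAC-seq peak over the start, of 1524 and 1199 bp. The downstream peak also held the starts of the non-coding transcript B230319C09Rik on the other strand. The start furthest upstream, of Tet3-204, which encodes 141 codons, lay 1052 bp from the nearest H3K4me3 peak and 1372 bp from the nearest ATAC-seq peak. The windows at chr6:83456373-83456572 and chr6:83441656-83441855, minus strand, held 24 and 15 CpG.
Tet3-203: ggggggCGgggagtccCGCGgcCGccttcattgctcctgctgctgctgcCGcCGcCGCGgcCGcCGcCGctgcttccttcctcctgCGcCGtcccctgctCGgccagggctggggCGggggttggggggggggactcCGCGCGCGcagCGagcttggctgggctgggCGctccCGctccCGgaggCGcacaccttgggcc
Tet3-202: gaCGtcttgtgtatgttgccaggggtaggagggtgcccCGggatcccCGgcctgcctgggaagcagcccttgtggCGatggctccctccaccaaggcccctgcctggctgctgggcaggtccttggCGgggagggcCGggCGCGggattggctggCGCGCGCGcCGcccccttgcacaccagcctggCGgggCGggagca

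**Figure D3:**
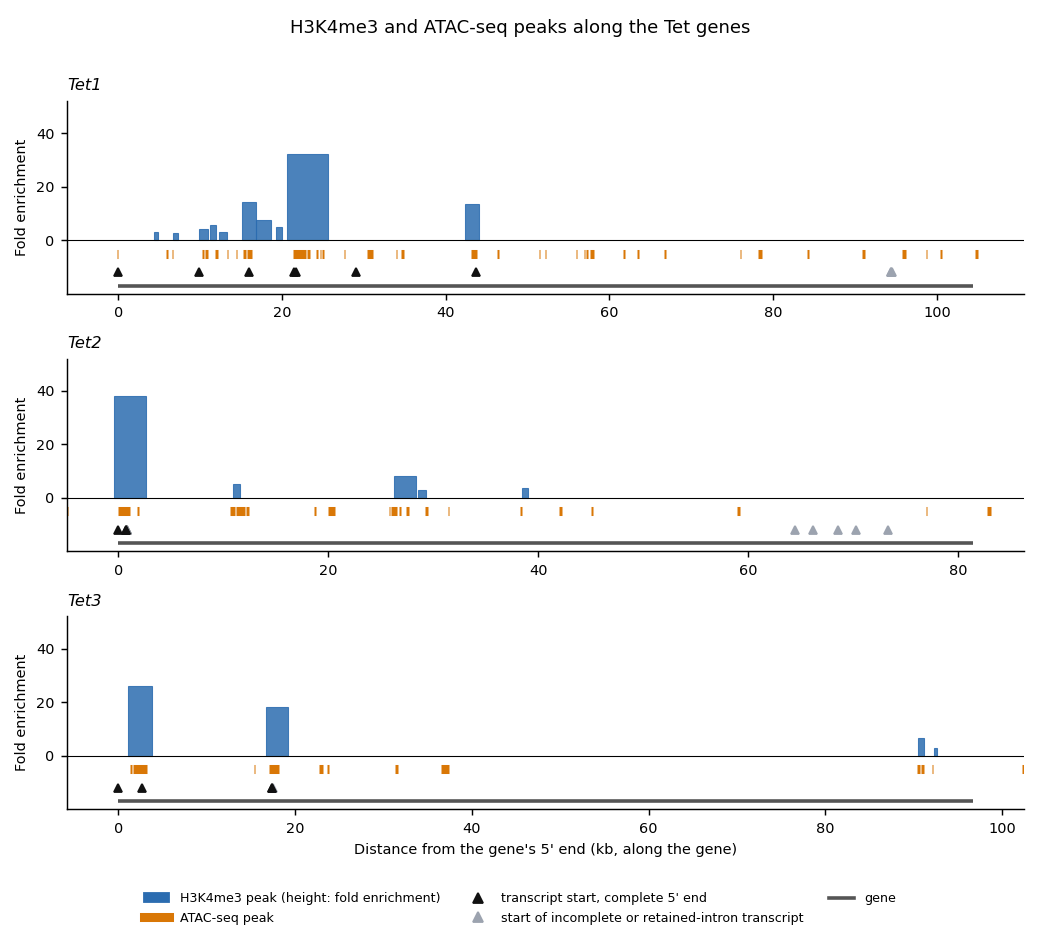
The Tet genes are drawn from their 5′ end in kb, with H3K4me3 peaks as blue bars (height: fold enrichment), ATAC-seq peaks in orange and starts as triangles (grey for incomplete or retained-intron transcripts). Tet1 carries 5 peaks at starts with the 32.3-fold peak among them, Tet2 carries 1 at its 5′ end, and Tet3 carries peaks of 26.1-fold and 18.1-fold.

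Zfp57 was marked over its main cluster of starts. The peak at chr17:37001970-37004795 was 33.7-fold with a −log10 q of 485.6 and held 12 of the 13 annotated starts, among them that of Zfp57-201 with 421 codons. A weak peak of 3.03-fold (chr17:37004862-37005467) directly followed it and held no start. The upstream start of Zfp57-202, which encodes 418 codons, lay 807 bp before the strong peak and 1092 bp from the nearest ATAC-seq peak. A single ATAC-seq peak of 1070 bp covered the start of Zfp57-201 and most others, but not those of Zfp57-212, which also encodes 421 codons, Zfp57-205 and Zfp57-203, which lay 342, 1198 and 1279 bp from it.

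The marked starts were richer in CpG than the unmarked ones at the median, though their ranges overlapped. The ratio of observed to expected CpG was taken over 500 bp on either side of 1 start of each cluster. Its median was 0.53 over the 17 marked clusters and 0.21 over the 24 unmarked ones. Over all protein-coding genes the medians were 0.67 at 19241 marked and 0.21 at 29366 unmarked clusters. The highest ratios were 0.98 at the Dnmt3a long-form start, 0.93 at Tet2, 0.83 at Dnmt3b and 0.82 at the Tet3-203 start. A ratio above 0.6 was found at 5 of the 17 marked clusters and at 1 of the 24 unmarked ones. Of the 14 clusters with a start inside a peak, 10 had a ratio above the lower value of 0.5. The other four were the marked Dnmt3l start at 0.29 and the Tet1 starts of Tet1-202, Tet1-206 and Tet1-209 at 0.39, 0.27 and 0.10. The remaining marked clusters, with no start inside the peak, were at 0.34 in Dnmt3a, 0.19 in Dnmt3l and 0.26 in Zfp57. Among the unmarked clusters 1 of 24 was above 0.5, and this was the full-length Tet1-201 start at 0.63, with 32 CpG in its 1000 bases.

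**Figure D4:**
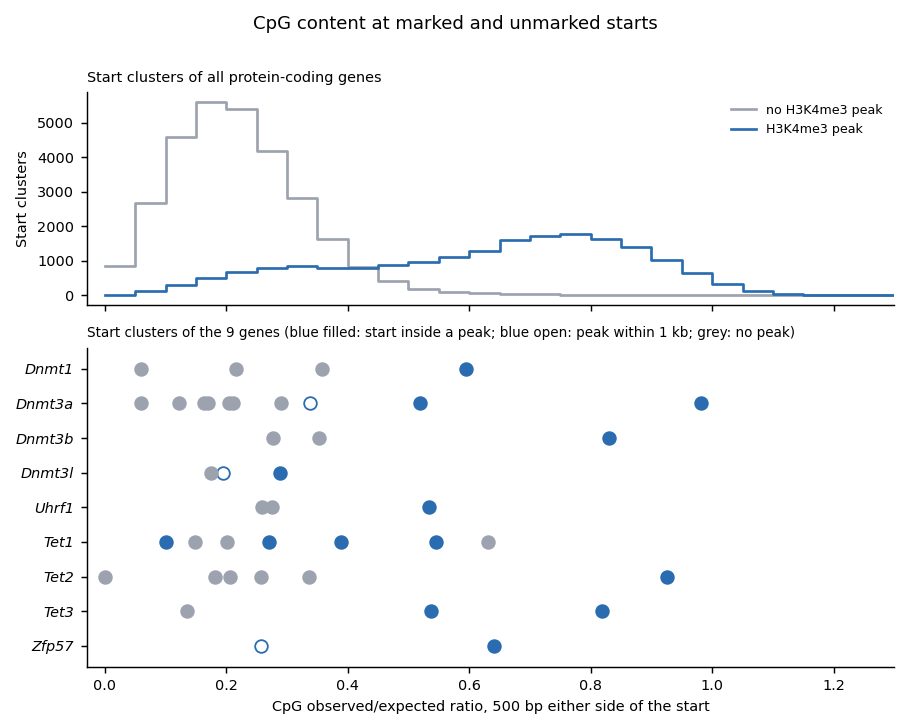
The upper panel counts start clusters of all protein-coding genes by CpG observed/expected ratio, with (blue) and without (grey) an H3K4me3 peak; the lower panel gives each of the 41 clusters of the 9 genes, blue and filled where a start lies inside a peak, blue and open where a peak lies within 1 kb, and grey where there is none. Marked clusters reach from 0.10 to 0.98, and the grey point at 0.63 is the Tet1-201 start.

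Short motifs were searched on both strands from 250 bases before to 50 bases from 1 start of each cluster. No motif contains another, though matches may share bases, and a match is a description of the sequence and not evidence of binding. GGGCGG, the core bound by Sp and Klf factors, was found at 11 of 41 clusters, against 26.1% of clusters of all protein-coding genes, with 7 matches at the Dnmt3a long-form start and 4 at Dnmt3b. TGCCGC, the hexamer bound by Zfp57, was found at 4 of 41 (9.21% over all genes): at the Dnmt3a long form, at Tet1-209 and at both marked Tet3 starts, but not at Zfp57 itself. CACGTG was found at 3 (5.98% over all genes), namely the Dnmt3a short form, the marked Dnmt3l start and Tet3-203. CCGGAAG was found at 2 (6.43%), ATGCAAAT at 2 (1.65%) and GCATGCGC at 1 (2.12%), the last with 2 matches at the marked Dnmt1 start.

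Away from annotated starts, the genes and 50 kb on either side held 31 further H3K4me3 peaks and 179 further ATAC-seq peaks. The H3K4me3 peaks were weak, with a median of 4.54-fold, close to the 4.17-fold of the 14431 such peaks in the whole list. Of the 31, 24 (77.4%) overlapped an ATAC-seq peak, against 76.3% in the whole list. Of the 179 ATAC-seq peaks, 39 (21.8%) overlapped an H3K4me3 peak, against 10.5% of 143360. Some of these overlaps, in Tet1, Dnmt3a, Dnmt3b and Tet3, were with the gene's own start peak. An overlap in the Zfp57 flank was with the peak at the starts of Znrd1 and Znrd1as. The whole list is not limited to genes and their flanks, so the sets are unlike, and the part of this in the difference was not tested. The median width of the 179 ATAC-seq peaks was 266 bp, against 240 bp in the whole list.

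The de novo gene Dnmt3a had 3 H3K4me3 peaks in its introns that were at no start, and each overlapped an ATAC-seq peak. They lay 18.7 and 27.2 kb into the gene in intron 1 (9.61-fold and 5.24-fold) and 64.6 kb into it in intron 4 (11.2-fold), counted on Dnmt3a-201. A further peak of 12.8-fold lay 14.9 kb upstream of that start. The strongest peak of this class near any member, 30.9-fold at chr12:3959630-3961017, lay 153 kb past the Dnmt3a-201 start. It covered the 3′ end of Pomc, the pro-opiomelanocortin gene (chr12:3954951-3960642), whose own start had a peak of 3.37-fold.

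In Tet2, 3 of the 4 such peaks lay in intron 1, the widest of them 2089 bp wide and 8.12-fold at 27.0 kb from the Tet2-204 start. All 4 overlapped ATAC-seq peaks. Tet1 had 5, of 2.68-fold to 5.69-fold, 3 of them in intron 1 of Tet1-206 and the others upstream of its start. Tet3 had 1 of 6.45-fold at its last coding exon, exon 12 of Tet3-203, and 1 of 2.86-fold next to it. Dnmt3b had 1 of 2.94-fold in intron 2, directly past its start peak and without an ATAC-seq peak. Dnmt1, Dnmt3l, Uhrf1 and Zfp57 had none inside the gene.

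ATAC-seq peaks inside the gene and away from starts were most numerous in Tet1, with 30, followed by Dnmt3a with 19, Tet2 with 16 and Tet3 with 8. These are also the longest members, at 104.4, 108.4, 81.5 and 96.7 kb. Most lay in introns of the longest coding transcript in Tet1 (23 of 30), Dnmt3a (17 of 19) and Tet2 (14 of 16), and 4 of 8 did in Tet3. The 5 shorter members had 1 to 3 each. Counted over the gene with both flanks and with all peaks included, Dnmt1 had 24.2 ATAC-seq peaks per 100 kb, Tet1 23.5 and Zfp57 22.8. The median over protein-coding genes was 10.9 and the upper quartile 16.5, and Tet3, at 10.7, was the only member below that median. In H3K4me3, all 9 regions were above the median of 2.53 peaks per 100 kb, from 2.76 at Tet2 to 10.96 at Zfp57. Marked starts of other genes add to these densities, with 7 such peaks around Zfp57 and 8 around Uhrf1, where 7 and 4 neighbouring genes were marked, Gabbr1 at 47.4-fold and Fem1a at 39.3-fold among them.

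**Figure D5:**
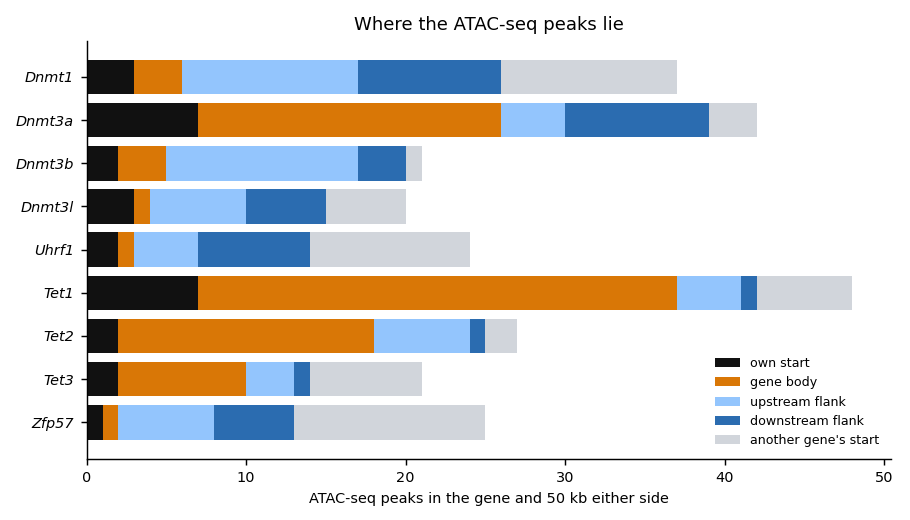
Bars count the ATAC-seq peaks in each gene and 50 kb either side by place: at the gene's own starts, elsewhere in its body, in the upstream or downstream flank, or at a start of another gene. Tet1 and Dnmt3a have the most peaks, 48 and 42, most of Tet1's in the gene body.

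Nearly all the other genes of DNA methylation and demethylation that were examined were marked at a start. Of 41 genes in 4 lists, 39 had an H3K4me3 peak at a start, against 68.7% of all protein-coding genes, and these lists too were chosen with earlier results known. All 10 genes listed as readers of methylated DNA had one, from 22.4-fold at Mbd4 to 52.9-fold at Mbd2. Whether each of them binds methylated DNA was not examined. Of 10 partners and regulators, 9 had one, from 10.0-fold at Prdm14, which represses the de novo enzymes in stem cells, to 49.5-fold at Usp7. The gene without one was Dnmt3c. All 17 partners of the Tet enzymes and of demethylation were marked, with the highest fold enrichment, 48.0-fold, at Cxxc5. In the methyl donor cycle 3 of 4 were marked, from 28.3-fold at Ahcy to 50.7-fold at Mat2a, and Mat1a, the liver form of methionine adenosyltransferase, had an ATAC-seq peak alone. The medians of the marked genes were 37.9-fold for the readers, 42.8-fold for the partners and regulators, 31.9-fold for the demethylation genes and 36.1-fold for the methyl donor cycle, against 32.6-fold for the 9 genes described here.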

How the data were processed

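ATAC-seq and H3K4me3 ChIP-seq of F123 cells were read from 1 deposited peak list each. Per the study's methods and the submitters' processing notes, the authors aligned ATAC-seq reads to mm10 with Bowtie 1.1.2, removed duplicate and mitochondrial reads, shifted read ends for the transposase, called peaks with MACS2 2.1.1.20160309 and kept, with bedtools 2.27.1, pooled peaks found in both replicates. The cutoff the authors gave for these ATAC-seq calls was on the p-value and not on the q-value. The deposited ATAC-seq list holds positions only, so weak calls cannot be told from strong ones by a score. The H3K4me3 list came from ENCODE's uniform histone pipeline, whose aligner and threshold are not given in the sources used here. The deposited values used from it are the fold enrichment, a ratio of ChIP signal to background, and the −log10 q-value of each peak. Neither list has counts, depth or values per replicate.

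Peaks were compared with GENCODE mouse release 21 on GRCm38.p6, the assembly of mm10. A start was called marked when a peak overlapped the 1000 bp on either side by at least 1 bp. Starts up to 1000 bp apart formed a cluster, shown by the start of its longest coding transcript, complete or not. The same calls over 21938 protein-coding genes served as background. Regions were the gene with 50 kb on either side. CpG content and printed sequences were read from the RefSeq copy of that assembly. Named were all 9 members, neighbours with a marked or shared start, and, from the 4 other lists, genes without a peak and those of highest and lowest fold enrichment, except 1 gene that is not reported here; the Pomc 3′ end was named after its value was seen. The members and lists were chosen with earlier results of these data known. The overlap code matched bedtools 2.31.1 at all of 1000 simulated starts. Python 3.11.15 and numpy 2.4.6 were used. Alternatives were other windows, thresholds, transcript sets, cluster distances and flanks.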

Additional observations from a re-analysis of the deposited data

How the results depend on the processing

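The count of members marked at a start was 9 for each assay under every alternative run. Of the 83 counts recomputed in all, 76 stayed within 1.5 times the value given. The exceptions were 92 ATAC-seq peaks away from starts when only the wider 50% of ATAC-seq peaks were kept (179 with all), 13 H3K4me3 peaks away from starts at a −log10 q of at least 20 (31 with all), and 13 start clusters with ATAC-seq among the 16 clusters left with basic transcripts (24 of 41 with all), where fewer peaks or clusters entered each count. The members with 2 or more marked clusters, recounted after seeing the data, were 3 in place of 5 at 500 bp, with the start inside the peak and by summit, and 8 with starts joined within 200 bp, which splits the clusters. With the start base itself required inside the peak, 14 clusters had H3K4me3 and 18 had ATAC-seq. Leaving out incomplete 5′ ends and retained introns, an alternative chosen after seeing the data, left 17 marked of 25 clusters.

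The share of all protein-coding genes stayed within its 95% Wilson interval, which covers counting error only, in 3 of 9 alternatives for H3K4me3 and 1 of 8 for ATAC-seq. In the others, for H3K4me3 (68.7%) it was 69.6% at 2000 bp, 66.7% with the start inside the peak, 67.2% by summit, 66.3% at a −log10 q of at least 20, 67.6% with basic and 68.0% with protein-coding transcripts. For ATAC-seq (75.1%) it was 77.9% at 2000 bp, 73.4% at 500 bp, 69.9% with the start inside the peak, 74.4% by midpoint, 71.5% with the wider 50% of peaks, 73.5% with basic and 74.0% with protein-coding transcripts. No paired analysis was possible because each list stands for both replicates and holds no value per replicate, so no replicate could be left out either. With the depth unknown, a start without a peak is one where no peak was called and not one shown to lack the mark.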
